A study of Rattus norvegicus with 28 samples.

Results

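The 86 genes described here encode solute carriers, ion pumps and ABC transporters of the rat dorsal root ganglion (DRG), the cluster of sensory neuron cell bodies and glia beside the spinal cord. They were chosen from the study's list of 1949 genes that passed its thresholds on adjusted p and fold change, against naïve rats, in both of its pain models. A gene was taken when its symbol began with Slc, Atp1, Atp2, Atp6, Atp8, Abca, Abcb, Abcc, Abcd or Abcg. None of the 86 genes is among the 186 transcriptional regulators that the study lists apart. The count table holds 32754 genes in all. Of the 86 genes, 64 carry an Slc symbol (4 of these an Slco symbol), 14 an Atp symbol and 8 an Abc symbol. No gene of the list has an Atp8 symbol.

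Levels come from the 2 RNA-seq libraries of the CFA group. Each was made from the ipsilateral lumbar (L4 to L6) DRGs of 1 adult male Sprague-Dawley rat, 12 weeks old, 48 h after complete Freund's adjuvant (CFA), which inflames the hind paw, was injected. Naïve and chronic constriction injury (CCI) rats form the other groups of the study, and their RNA-seq libraries were not analysed here. The members were chosen by a contrast in which these 2 libraries took part, so their levels are given as a description, with no test and no direction of change from naïve rats.

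Solute carriers move ions, sugars, amino acids, transmitters and metabolites across membranes, either down a gradient or coupled to the flow of another ion. The pumps build those gradients with ATP. The sodium and potassium pump restores the resting state of a sensory neuron after firing, calcium pumps and exchangers clear calcium after activity, and the proton pump acidifies lysosomes and synaptic vesicles so that vesicular carriers can load transmitter. ABC transporters export lipids, peptides and conjugated compounds. Some organic anion and GABA carriers are best known from the barrier layers of kidney, meninges and vessels rather than from neurons.

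CFA replicate 1 held 10520647 counts on genes and CFA replicate 2 held 28825688. All 86 genes were counted in each rat, and 84 of them had no fewer than 10 counts in either. The markers of sensory neurons summed to 36391 CPM, the counts of a gene per 1000000 counts of its library, in CFA replicate 1 and 37662 CPM in replicate 2, and each of the 12 markers had at least 10 counts in both. Markers of myelinating Schwann cells (3 genes) summed to 2919 and 2797 CPM, and markers of connective tissue and vessels (7 genes) to 3094 and 2856 CPM. Neuronal markers thus stood at high levels beside glial and connective tissue transcripts. Most of the neuronal sum came from Nefm (11574 and 11586 CPM), Nefl (9561 and 9790 CPM) and Nefh (7154 and 8262 CPM). Every marker was taken from the study's list of 1949 genes, as the members were, so these sums are no independent check of the tissue. In such bulk tissue fewer cells of a type and less RNA per cell cannot be told apart. CPM is the share of a library's counts on a gene and was not divided by transcript length, so an order by CPM is an order of reads, not of transcript numbers.

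Summed over the 86 genes, the share of a library was 1.23% for replicate 1 and 1.28% for replicate 2, a mean of 1.26% ± 0.0347 (SD, n = 2). The counts were uneven. The 5 genes with the highest CPM held 52.4% and 51.5% of the members' counts in the 2 libraries, and the 25 genes with fewer than 10 CPM held 0.832% and 0.722%. A further 38 genes lay from 10 to 100 CPM and 23 genes at or above 100 CPM. The median over the 86 genes was 23.4 CPM, compared with 20.4 CPM over the 1863 other genes of the study's list and 9.09 CPM over the 21122 genes with a count. Over the genes that reached 10 counts in each library these medians lay closer together, at 24.6 CPM for the members, 21.5 CPM for the other listed genes and 21.4 CPM for all genes. The middle 50% of the members lay between 7.15 and 106 CPM. Against all genes with a count, 35 members exceeded at least 75% of them and 23 lay below the median.

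**Figure D1:**
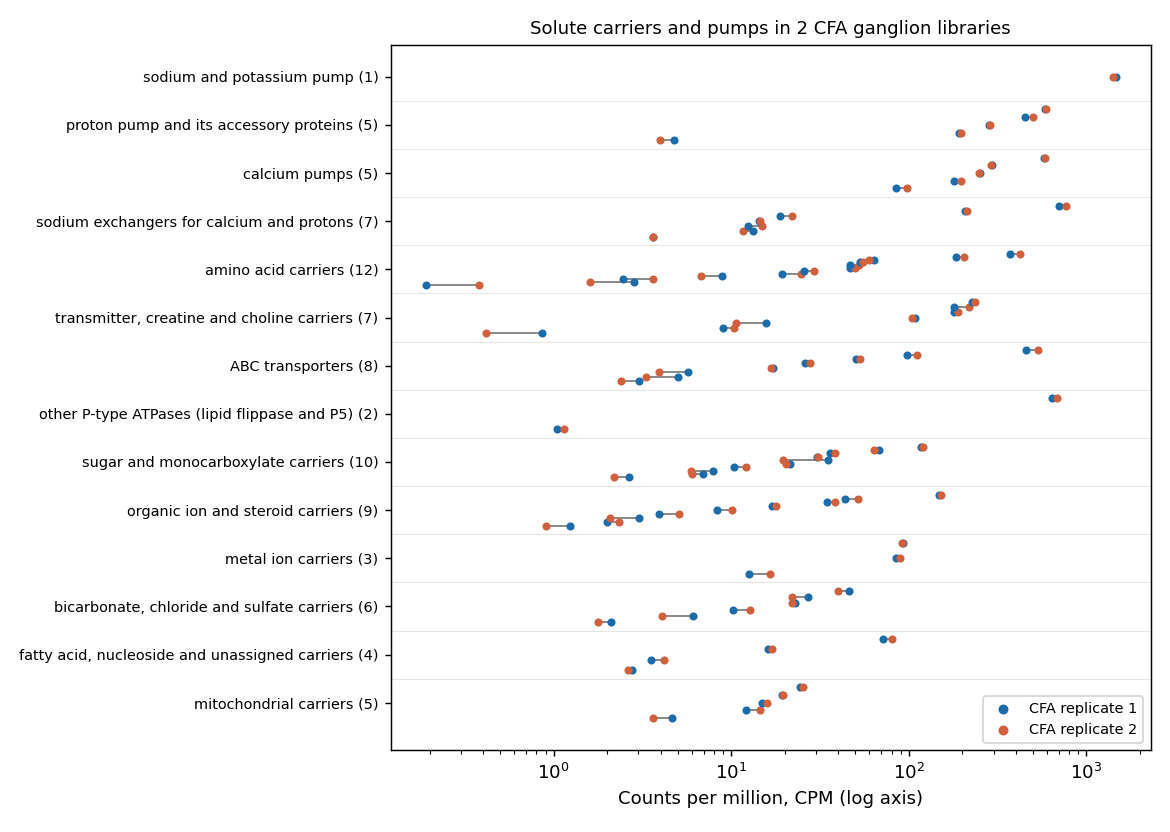
CPM of 84 of the 86 genes in CFA replicate 1 (blue) and CFA replicate 2 (orange) on a log axis, grouped by carrier or pump family with the number of genes plotted in parentheses; a grey line joins the values of 1 gene. The genes plotted span from Slc43a1 at 0.286 CPM to Atp1b1 at 1439.9 CPM on average, and the values of a gene lie close together except among the low genes and at Slc16a11.

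Of the sodium and potassium pump, the beta subunit gene Atp1b1 (ENSRNOG00000002934), whose product the enzyme needs to mature and reach the membrane, had 1466 CPM in CFA replicate 1 and 1413 CPM in CFA replicate 2, or 1439.9 ± 37.3 CPM (SD, n = 2). It was slightly lower in replicate 2. Fxyd1 and Fxyd6 encode small membrane proteins that regulate this pump and stand in the same study list without belonging to the 86 genes. Fxyd6 had 152 and 135 CPM, and Fxyd1 had 37.3 and 40.5 CPM.

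Genes of the proton pump summed to 1506 and 1581 CPM over 5 genes. The V-ATPase consists of a cytosolic sector that splits ATP and a membrane sector that conducts protons. Atp6v1b2, the B subunit of the cytosolic sector that prevails in brain, had 581 and 594 CPM. Atp6v1a, the catalytic A subunit, had 448 and 501 CPM. The accessory protein gene Atp6ap2, also known as the prorenin receptor, reached 282 and 285 CPM. The regulatory subunit gene Atp6v1h was at 190.5 and 197 CPM. These 4 genes all lay above 100 CPM in both libraries. Atp6ap1l, which resembles the gene of another accessory protein, lay far below them at 4.75 and 3.99 CPM. Of the partner genes, Tcirg1, a subunit of the membrane sector, had 24.1 and 22.7 CPM, and Wdr7, which encodes a protein bound to the V-ATPase, had 264 and 292 CPM.

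The 5 calcium pump genes summed to 1384 and 1415 CPM, and no member of this family lay below 85 CPM in either library. Atp2a2, the pump that refills the endoplasmic reticulum, had 573 CPM in replicate 1 and 582 CPM in replicate 2. Atp2c1, which loads the Golgi apparatus with calcium and manganese, had 295 and 291 CPM. The plasma membrane pumps followed, with 251 and 248.5 CPM for Atp2b1. Atp2b2 had 179.8 and 196 CPM, and Atp2b3 had 85.1 and 97.6 CPM. The order of these 3 plasma membrane genes by CPM was the same in both libraries.

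Calcium also leaves the cytosol through exchangers driven by sodium, and protons through a related family. Among these 7 genes Slc24a2, a potassium-dependent sodium/calcium exchanger of neurons, took most of the counts, with 701 and 764 CPM (732 ± 45.0, SD, n = 2). The endosomal sodium/proton exchanger gene Slc9a9 followed at 206 and 214 CPM. Its relative Slc9a7, found on the Golgi apparatus, had 18.7 and 22.1 CPM. The sodium/calcium exchanger genes of the plasma membrane, Slc8a3 and Slc8a1, and the mitochondrial one, Slc8b1, lay between 12.5 and 14.4 CPM on average. Slc9a3, the sodium/proton exchanger known from the gut and kidney, was lowest, at 3.61 and 3.61 CPM.

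The transmitter, creatine and choline carriers comprised 8 genes. Slc6a15, a sodium-dependent carrier of neutral amino acids in neurons, had 227 and 236 CPM. Slc17a6, which loads glutamate into synaptic vesicles and serves most sensory neurons of the ganglion, had 179 and 217 CPM. Slc6a17, a vesicular carrier of neutral amino acids, had 178 and 188 CPM. Of these 3 genes Slc17a6 showed the widest gap between the rats, a log2 ratio of 0.28. The creatine carrier Slc6a8 had a mean of 106 CPM and the choline carrier Slc5a7 9.67 CPM. The GABA carrier Slc6a13 (ENSRNOG00000012876), which is known from the meninges, had 15.6 CPM in replicate 1 and 10.6 CPM in replicate 2. Its chromosomal neighbour Slc6a12, the betaine and GABA carrier, rested on 9 and 12 counts, which gave 0.855 CPM (95% Poisson interval 0.391 to 1.62) and 0.416 CPM (0.215 to 0.727). Such intervals cover counting error only.

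Amino acid carriers were the largest family, with 12 genes and 823 and 910.0 CPM in sum. Slc38a2, a sodium-coupled carrier of glutamine and alanine, had 369 and 421 CPM. The lysosomal proton-coupled carrier gene Slc36a1 (ENSRNOG00000012356) had 185 and 205 CPM, and Slc7a7, a light chain of the exchanger for cationic amino acids, 63.9 and 60.0 CPM. Slc38a2 and Slc36a1 thus stood well apart from the rest of the family. Slc3a1, Slc7a14, Slc38a1, Slc43a3 and Slc36a2 lay between 21.9 and 54.1 CPM on average, and Slc7a11, the cystine and glutamate exchanger, at 7.80 CPM. Slc38a6 had 3.04 CPM. Slc38a3, a glutamine carrier, had 2.85 CPM in replicate 1 and 1.6 CPM in replicate 2 from 30 and 46 counts. The lowest of the 86 genes was Slc43a1, a carrier of large neutral amino acids, with 2 and 11 counts. Its 0.190 CPM (95% Poisson interval 0.0230 to 0.687) and 0.382 CPM (0.190 to 0.683) did not differ beyond counting error.

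ABC transporters were led by Abca8a (ENSRNOG00000004147) with 456 and 530.2 CPM. Abca5 had 97.4 and 111 CPM, and Abcb9, a lysosomal peptide transporter, 50.6 and 52.9 CPM. Abca8a and Abca5 were both higher in replicate 2 by more than counting error, and Abca8a alone held 3.70% and 4.14% of the members' counts. Abcg4, a sterol exporter, and Abcg3l3 lay at 26.9 and 17.0 CPM on average. The cobalamin transporter gene Abcd4, Abcc3 and Abcc6 lay below 10 CPM, with Abcc6 lowest at 3.04 and 2.39 CPM. Reads of Abca8a and Abcg3l3, which have near relatives in the rat genome, can be split or lost in counting, so their values are less certain.

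The prefix Atp1 also takes in a pair of P-type ATPases outside the sodium pump. Atp11a, a flippase that moves phosphatidylserine to the inner leaflet of the membrane, had 641 and 682 CPM. Tmem30a, the subunit that flippases of this kind need, is a partner gene outside the 86 and had 419.9 and 482 CPM. Both were somewhat higher in replicate 2. Atp13a5, of the P5 subgroup, had only 11 and 33 counts, or 1.05 and 1.14 CPM.

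Sugar and monocarboxylate carriers (10 genes) were led by the neuronal glucose transporter gene Slc2a3 with 116 and 120.4 CPM. Slc45a1, a sugar carrier of brain, had 67.6 and 63.8 CPM, and Slc2a6 had 35.8 and 38.6 CPM. Slc2a10 was lowest at 2.66 and 2.19 CPM. The 5 genes of the monocarboxylate family, Slc16a6, Slc16a11, Slc16a14, Slc16a7 and Slc16a13, lay between 6.93 and 30.6 CPM, and Slc50a1 at 6.47 CPM. Emb encodes embigin, a chaperone of monocarboxylate carriers, and had 43.9 and 45.8 CPM. Slc16a11 (ENSRNOG00000018748) had the largest log2 ratio between the libraries, in size, of any of the 84 members with enough counts, with 35.3 CPM in replicate 1 and 19.5 CPM in replicate 2.

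The organic ion and steroid carriers (9 genes) were led by Slc22a23, a carrier with no settled substrate, at 148 and 151 CPM. Slco1a2, of the organic anion transporting family, had 43.8 and 51.9 CPM, and Slco5a1 had 34.4 and 38.6 CPM. Slco1a2 belongs to a cluster of similar genes, which leaves its count less certain. Slco2b1 lay at 17.5 CPM, Slc51a at 9.25 CPM and the thyroid hormone carrier Slco1c1 at 4.50 CPM. The anion carriers Slc22a8 and Slc22a6, known from kidney and from the barriers of the brain, had 3.04 and 2.08 CPM and 2.0 and 2.32 CPM. Slc22a2, the organic cation carrier of the kidney, was lowest with 13 and 26 counts, or 1.24 and 0.902 CPM.

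The smaller families held little of the members' counts. For metals, the magnesium carrier Slc41a2 had 92.9 and 92.0 CPM, the zinc importer Slc39a6 84.4 and 89.7 CPM and Slc41a3 12.6 and 16.4 CPM. The bicarbonate, chloride and sulfate carriers were led by Slc12a4, which exports potassium with chloride, at 46.3 and 39.96 CPM. Slc13a4, a sodium-coupled sulfate carrier, had 26.9 and 21.9 CPM, and the anion exchanger gene Slc4a3 22.9 and 22.0 CPM. Slc4a8, a sodium-driven bicarbonate exchanger, had 10.2 and 12.8 CPM. Slc12a3, the sodium chloride cotransporter of the kidney tubule, was lowest at 2.09 and 1.77 CPM, and Slc26a6 had a mean of 5.07 CPM. Stk39, a kinase that regulates cotransporters of the Slc12 family, had 320.1 and 309 CPM.

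Among the mitochondrial carriers the dicarboxylate carrier Slc25a10 had 24.4 and 25.2 CPM. Slc25a23, which exchanges ATP with phosphate, had 19.3 and 19.6 CPM, and the coenzyme A carrier Slc25a42 14.8 and 15.9 CPM. Slc25a28, a mitochondrial iron importer, lay at 13.3 CPM, and Slc25a35 was lowest at 4.66 and 3.61 CPM. The genes of the family thus all lay below 26 CPM, from 4.13 to 24.8 CPM on average. Of the remaining 4 genes, the fatty acid carrier Slc27a1 had 71.7 and 80.2 CPM, Slc35g2 had 16.2 and 17.0 CPM and the nucleoside carrier Slc28a2 3.52 and 4.16 CPM. Slc49a3 was the lowest of these at 2.76 and 2.64 CPM. Clcn5, an endosomal chloride and proton exchanger, and Tap2, a peptide transporter of the endoplasmic reticulum, are partner genes outside the 86 and had 38.6 and 15.0 CPM on average.

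**Figure D2:**
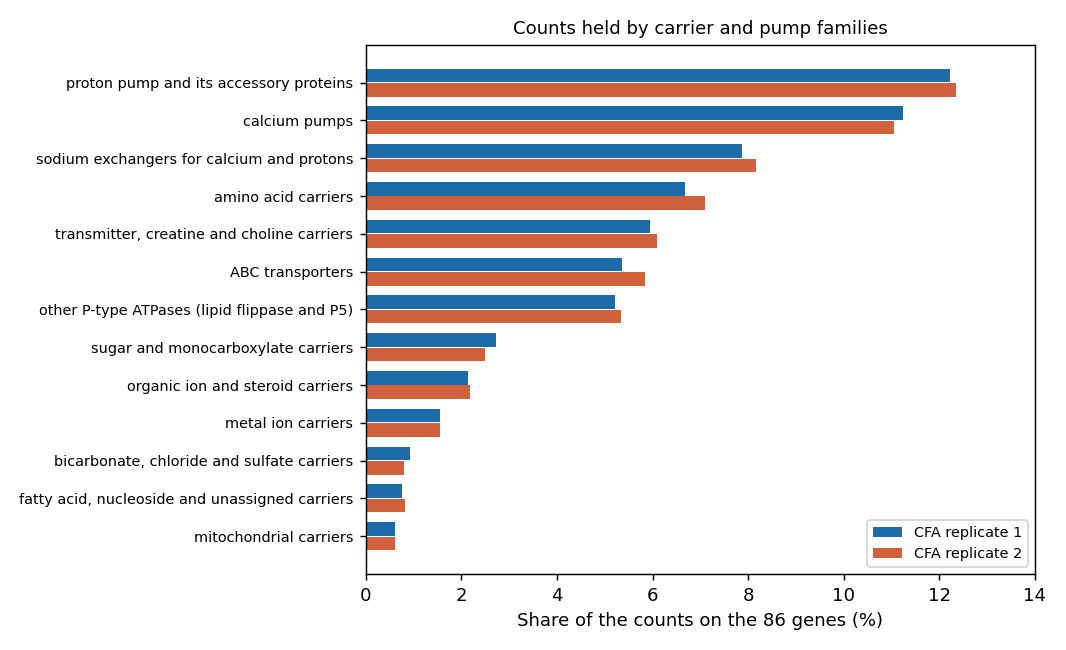
Share of the counts on the 86 genes, in percent, that each of 13 families held in CFA replicate 1 (blue) and CFA replicate 2 (orange). The proton pump took 12.2% and 12.3% and the calcium pumps 11.2% and 11.1%.

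The order of the families by summed CPM was the same in both libraries down to the bicarbonate, chloride and sulfate carriers, which had 114 CPM in replicate 1 and 102 CPM in replicate 2. The fatty acid, nucleoside and unassigned carriers had 94.1 and 104 CPM, so the order of these neighbouring families turned between the rats.

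The spread between the rats was described by the log2 ratio of CPM in replicate 2 to CPM in replicate 1, with 1 CPM added to each. Among the 84 members with no fewer than 10 counts in either library, 3 (3.57%) differed by more than 0.5, compared with 3.92% of all 15115 genes with such counts. The genes were Slc16a11 with a log2 ratio of -0.82, Slc38a3 with -0.57 and Slc6a13 with -0.51. All 3 were lower in replicate 2. Scaled by the median of ratios between the libraries, Slc6a13 had -0.498 and no longer passed the limit, while Slc16a11 and Slc38a3 did. With 0.1 CPM added in place of 1 CPM, 8 of the 84 members and 7.34% of all genes differed by more than 0.5. For Slc16a11 the CPM ratio was 0.554 with an exact 95% counting interval of 0.485 to 0.633, for Slc38a3 0.560 (0.346 to 0.918) and for Slc6a13 0.681 (0.562 to 0.828). In the RefSeq gene table (GRCr8) Slc16a11 lies next to Slc16a13 and their spans overlap. Slc16a13 had 7.89 and 5.97 CPM, lower in replicate 2 as well. The reads were counted on rn6, and the part of this overlap in the counts of either gene was not tested. Slc6a12, the neighbour of Slc6a13, is not among the 84 genes, with 9 and 12 counts. Its log2 ratio was -0.39, and its CPM ratio of 0.487 (0.188 to 1.31) did not differ from 1 beyond counting error.

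The 95% counting interval of the CPM ratio left out 1 for 29 of the 84 genes (34.5%). This held for 31.4% of the other listed genes and 25.6% of all genes with such counts. The interval narrows with the number of counts, and this share was larger at higher levels, from 6 of 23 genes under 10 CPM to 12 of 38 from 10 to 100 CPM and 11 of 23 at or above 100 CPM. The shares over all genes in these classes were 13.0%, 25.5% and 53.3%. The size of the ratio had the opposite order. Its median was 0.25 under 10 CPM, 0.10 from 10 to 100 CPM and 0.06 at or above 100 CPM in the members, and 0.18, 0.10 and 0.08 in all genes. Of the 23 members under 10 CPM, 16 (69.6%) were lower in replicate 2, as were 55.1% of all genes of that level. Of the 23 members at or above 100 CPM, 19 (82.6%) were higher in replicate 2, as were 53.7% of all genes of that level. The connective tissue and vessel markers were lower in replicate 2 for 4 of 7 genes and the myelinating Schwann cell markers for 2 of 3. Over all genes this held for 55.1% under 10 CPM, 52.7% from 10 to 100 CPM and 46.3% at or above 100 CPM. The sensory neuron markers, all above 100 CPM, were higher for 8 of 12, against 53.7% of all genes of that level. Their log2 ratios lay between -0.20 and 0.21, and Tac1, Nefm and Tubb3 among the 8 had 0.00073, 0.0015 and 0.0066. The part of tissue composition in these ratios was not tested.

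**Figure D3:**
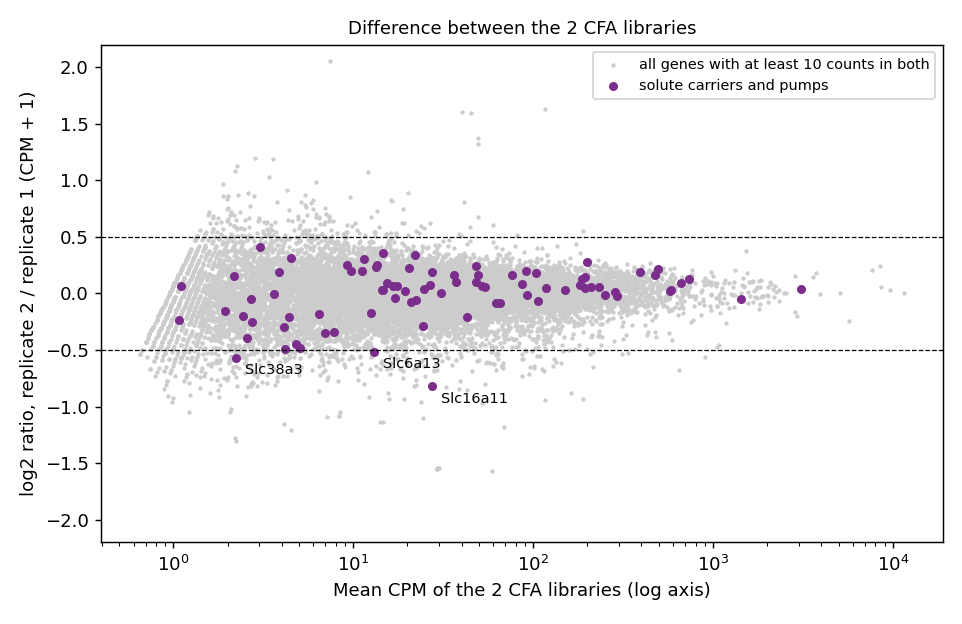
Log2 ratio of replicate 2 to replicate 1, with 1 CPM added, against the mean CPM on a log axis, for 84 carrier and pump genes (purple) and the 15115 genes that reached 10 counts in each library (grey). Dashed lines mark a ratio of 0.5 in either direction. Slc16a11, Slc38a3 and Slc6a13 lie below the lower line, and no member lies above the upper one.

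Promoter sequence is a feature that the choice of genes did not use. RefSeq promoters on GRCr8, windows from 250 bases before to 50 bases after a gene's start, were found by symbol for 62 of the 86 genes. No window was found for Atp1b1 and 23 other genes. The windows carry coordinates of GRCr8, while the reads were aligned to rn6, so they were joined to the counts by symbol only. A window was called CpG-rich when its GC content was above 50% and its CpG ratio, the number of CpG pairs over that expected from its C and G content, was above 0.6. This held for 32 of 62 members (51.6%), for 60.2% of the 1420 windows of other genes of the study's list and for 33.5% of all 27457 windows.

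The stretches below are the 120 bases before the start of 4 members, with each CpG in capitals. They show the range of the CpG ratio, with the lowest (Slc28a2, 0.0863) and the highest (Atp2a2, 1.12) of the 62 windows, beside a carrier known from kidney (Slc22a8, 0.204) and the amino acid carrier with the most counts (Slc38a2, 0.866). These 4 were chosen after their values were seen. They lie on GRCr8 at chr3:129819668-129819787 on the plus strand, chr1:214927164-214927283 on the plus strand, chr7:129742620-129742739 on the minus strand and chr12:39733399-39733518 on the plus strand, and are written 5′ to 3′.
Slc28a2: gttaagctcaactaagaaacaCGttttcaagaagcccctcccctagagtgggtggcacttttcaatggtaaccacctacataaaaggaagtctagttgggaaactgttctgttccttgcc
Slc22a8: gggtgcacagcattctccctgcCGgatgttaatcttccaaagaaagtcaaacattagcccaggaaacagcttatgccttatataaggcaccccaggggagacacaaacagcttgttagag
Slc38a2: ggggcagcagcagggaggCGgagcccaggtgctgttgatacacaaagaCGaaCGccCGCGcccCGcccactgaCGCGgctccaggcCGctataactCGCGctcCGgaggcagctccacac
Atp2a2: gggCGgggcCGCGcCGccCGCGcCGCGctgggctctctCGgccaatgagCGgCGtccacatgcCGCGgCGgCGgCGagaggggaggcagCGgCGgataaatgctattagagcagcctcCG

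The stretches of Slc28a2 and Slc22a8 hold 1 CpG each, that of Slc38a2 holds 12 and that of Atp2a2 holds 19. In the same order the 4 genes had 3.84, 2.56, 395 and 578 CPM on average. Over the 62 genes the 32 with a CpG-rich window had a median of 49.96 CPM, with the middle 50% from 15.1 to 208 CPM, and the 30 others a median of 15.8 CPM, from 3.97 to 44.1 CPM. By library the medians were 48.5 and 51.4 CPM for CpG-rich windows and 14.8 and 16.6 CPM for the others. Of the CpG-rich genes 13 lay at or above 100 CPM and 5 below 10 CPM, while of the others 3 lay at or above 100 CPM and 12 below 10 CPM. The other genes of the study's list had medians of 27.2 CPM for 855 CpG-rich windows and 14.9 CPM for 565 others. These are descriptions across genes, which share both libraries and differ in transcript length.

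Families differed in these windows. All 4 windows of calcium pumps and all 5 of mitochondrial carriers were CpG-rich. None of the 5 windows of organic ion and steroid carriers was, with CpG ratios from 0.204 for Slc22a8 to 0.591 for Slc22a23. Of the 10 windows of amino acid carriers 4 were CpG-rich. The 2 classes overlapped in level. Slc9a9, with a CpG ratio of 0.203, had 209.8 CPM. Slc17a6 and Slc22a23, which were not CpG-rich either, had 198 and 150 CPM, but both lay near the limits. Slc17a6 had a ratio of 0.614 with a GC content of 49%, and Slc22a23 a ratio of 0.591. Slc38a6, with a ratio of 0.806, had only 3.04 CPM. The CpG-rich genes Slc9a3, Slc25a35, Abcd4 and Slc50a1 also lay low, at 3.61, 4.13, 4.81 and 6.47 CPM. The mitochondrial carriers, all CpG-rich, lay between 4.13 and 24.8 CPM.

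**Figure D4:**
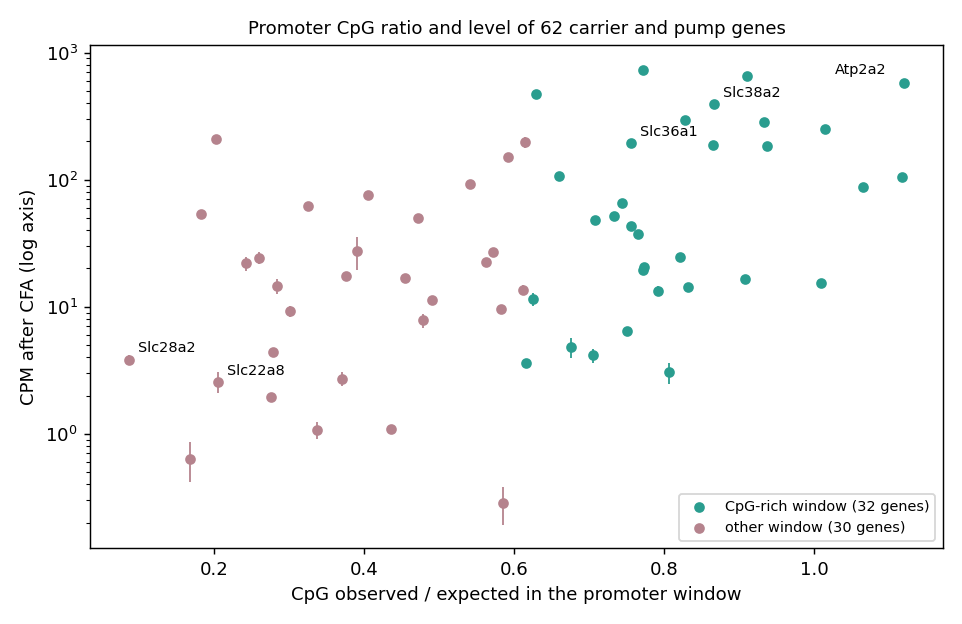
Mean CPM of the 2 CFA libraries, on a log axis, against the CpG ratio of the promoter window for 62 carrier and pump genes; vertical lines join the values of the 2 libraries. CpG-rich windows (green, 32 genes) have a median of 49.96 CPM and the others (mauve, 30 genes) a median of 15.8 CPM.

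A set of 12 known motifs was searched on both strands of the windows. The CLEAR element, a palindrome of 10 bases bound by the lysosomal regulator Tfeb, was in the window of 1 of 62 members, Slc36a1, and in 0.277% of all windows. The window of Slc36a1 is shown up to its start (250 bases, chr10:39824785-39825034 on the plus strand of GRCr8), with the element in capitals.
Slc36a1: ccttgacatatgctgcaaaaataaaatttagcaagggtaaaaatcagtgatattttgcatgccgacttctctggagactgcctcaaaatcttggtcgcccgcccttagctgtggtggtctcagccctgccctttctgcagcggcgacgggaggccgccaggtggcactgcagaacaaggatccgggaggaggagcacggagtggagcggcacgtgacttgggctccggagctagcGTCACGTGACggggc

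The element begins 15 bases before the start and holds the E-box CACGTG, which also lies 41 bases before the start. The E-box was in 5 members (8.06%) and in 6.65% of all windows. The other members with it were Slc7a14, Slc9a3, Slc41a3 and Slc43a1. The window of Atp6v1a and that of the accessory gene Atp6ap2 did not hold the CLEAR letters.

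The core of the antioxidant response element, TGACNNNGC, was found in 12 members (19.4%), in 13.7% of the other listed genes and in 12.2% of all windows. The 12 include Slc38a2, Slc36a1, Atp6v1a, Atp11a, Slc17a6 and Slc3a1. At Slc36a1 it overlaps the CLEAR element, and at Atp6v1a and Slc3a1 a match overlaps the AP-1 letters TGANTCA. The AP-1 site was in 4 members (6.45%), in 4.65% of the other listed genes and in 7.33% of all windows. The core of the amino acid response element, TGATGNAA, was in Slc38a1 and Slc9a9, 3.23% of members. It was in 2.32% of the other listed genes and 3.82% of all windows. The cAMP response element TGACGTCA was in Slc38a6 and Slc45a1, 3.23% of members, against 2.54% of the other listed genes and 1.91% of all windows.

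The GC box GGGCGG was in 35 members (56.5%), in 57.8% of the other listed genes and in 34.9% of all windows. The CCAAT box CCAAT was in 21 members (33.9%), in 35.4% of the other listed genes and in 37.7% of all windows. The TATA box TATAAA was in 6 members (9.68%), in 5.77% of the other listed genes and in 14.3% of all windows. The members with the TATA letters, with the position of the first base from the start, were Slc28a2 (-234), Atp6v1a (-163) and Abcd4 (-159). The others were Slc3a1 (-66 and -64), Slc12a3 (-32) and Slc5a7 (-10). The matches at Slc28a2 and Atp6v1a, and that at -66 in Slc3a1, read TTTATA and so lie on the reverse strand. These matches were counted anywhere in the window. The NRF1 site was in Atp2c1 and Slc39a6, the FOXO site TGTTTAC in Slc6a12, and the PAR bZIP site TTACNTAA in 0 of 62 windows, against 4.71%, 3.76% and 2.19% of all windows. A match of letters is a description and no evidence of binding.

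Neighbouring genes were read from the order of protein-coding genes in the RefSeq table. The members include 5 adjacent pairs, each of them within 1 carrier family. Slc38a1 and Slc38a2 had 48.2 and 395 CPM, Slc36a2 and Slc36a1 had 21.9 and 195 CPM, and Slc6a13 and Slc6a12 had 13.1 and 0.636 CPM. Slc22a8 and Slc22a6 had 2.56 and 2.16 CPM, and Slc16a13 and Slc16a11 had 6.93 and 27.4 CPM. The values of the Slc22 pair lay close together and overlapped between the libraries. How often other pairs of genes overlap was not counted, so the other 4 pairs are given by their levels only.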

How the data were processed

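RNA-seq counts of DRG from 2 CFA rats were analysed. Per the methods, HISAT2 placed the reads on the rn6 genome, ribosomal reads were filtered out, and featureCounts tallied the rest against the Ensembl transcriptome of rn6. The authors deposited the resulting raw counts, with no normalization. The libraries were strand-specific, and the strand setting of the counting was not given in the sources used here. ATAC-seq tables were not used, because an rn6 annotation to place the genes was not at hand. Fold changes, p-values and average counts in the study's gene lists were not used.

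Counts were scaled to the library total (CPM) in Python 3.11.15 with numpy 2.4.6, pandas 2.3.3 and scipy 1.17.1, and figures were drawn with matplotlib 3.10.9. With 2 libraries of 1 group no test was made. Members and lists were chosen with earlier results of these data known, and families and motifs from gene function. Named genes are the 3 highest and the lowest of each family, those with fewer than 10 counts in a library or a log2 ratio past 0.5, and listed markers and partners. Values of 2 members are not reported here. The other members are given by means or ranges within their family, and genes named for promoter features were chosen after their values were seen. Promoter features were added after seeing the data, in place of lengths and features of proteins, for which sequences were not at hand. Counting intervals are 95% exact Poisson and binomial intervals. A simulation of CFA replicate 2 against CFA replicate 1 covered 32754 genes. In it 200 genes, drawn from those with at least 30 counts in both libraries, were changed 2-fold. Of these 100% passed the 0.5 limit, as did 0.751% of unchanged genes. Genes with fewer counts were not among those changed, and the added 1 CPM shrinks the ratios of low genes. Slc6a12, for example, had a CPM ratio of 0.487 but a log2 ratio of -0.39. In the measured libraries 3.92% of the 15115 genes with enough counts passed the 0.5 limit. The simulated share of 0.751% therefore does not stand for the spread between the rats. Depth was 10520647 and 28825688 counts.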

Additional observations from a re-analysis of the deposited data

How the results depend on the processing

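No paired analysis was possible because the RNA-seq libraries used here belong to 1 group. Values per kb of coding length and the comparison of their order with CPM were not run, since protein sequences were not at hand. With each library left out in turn, the median of the members ranged from 22.0 to 23.7 CPM. With 2 libraries such a value is that of the library kept, and it says nothing about stability. The median was 24.6 CPM over the 84 members that reached 10 counts in each library. The share of counts was 1.18% with strict families (80 genes, without Slco genes, Atp11a and Atp13a5) and 1.32% with the 5 highest genes of the library left out of the total. That scaling raised the family sums alike, to 1618 CPM for the proton pump, 1467 for the calcium pumps, 794 for the transmitter carriers, 694 for the other P-type ATPases, 343 for the sugar carriers, 284 for the organic ion carriers, 203 for the metal carriers and 80.8 for the mitochondrial carriers. With a pseudocount of 0.1 CPM, 8 of 84 members differed by more than 0.5 between the libraries, against 7.34% of all genes, and by median of ratios 2 did, without Slc6a13. The number was 3 with no minimum of counts and with a minimum of 30. Limiting the CpG-rich call to ratios above 0.75, chosen after seeing the data, left 22 of 62 members and 24.1% of all windows. Genes under 10 CPM rest on the fewest reads, and replicate 1 limits them.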
